A study of Mus musculus with 6 samples.

Results

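The genes described here are Ifng, which encodes the cytokine interferon gamma, and 9 genes that stand before or after it in its circuit: the interferon gamma receptor chains Ifngr1 and Ifngr2, their kinases Jak1 and Jak2, the interleukin 12 receptor chains Il12rb1 and Il12rb2, the interleukin 18 receptor chains Il18r1 and Il18rap, and the transcription factor Stat4. They are 10 of 49671 genes counted, and all 10 were among the 13996 genes that passed a filter on low counts. Ifng was chosen by its known lower level in BiTS in these libraries, so its values between treatments are given as a description with no test. The other 9 were chosen by their role, but with earlier results of these data known. BiTS is a bispecific T cell silencer that binds LAG-3 and the T cell receptor complex. RNA came from splenocyte cultures of OT-I mice, labelled as naive primary CD8 T cells. OT-I cells carry a transgenic receptor for the ovalbumin peptide SIINFEKL, and the cells of all 6 libraries received SIINFEKL for 48 h. The 3 groups were BiTS, BiTS(mut) and isotype, with 2 libraries each, and the series asks how activated OT-I cells differ between them. The labels do not describe the change in BiTS(mut), and they do not say whether libraries of a group came from separate mice or cultures, so a p-value reflects only how far these libraries vary, which may be technical. By title number the libraries form a first set (1 to 3) and a second set (4 to 6), each with 1 library per group, and comparisons are given without and with this set as a block.

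Interferon gamma is made by activated CD8 T cells and natural killer cells. Interleukin 12 from antigen-presenting cells acts through a receptor of Il12rb1 and Il12rb2 and activates STAT4, while interleukin 18 acts through Il18r1 and the accessory chain Il18rap, and both together drive Ifng transcription. Secreted interferon gamma binds Ifngr1, which pairs with Ifngr2, and the attached kinases JAK1 and JAK2 start the signal that switches on antigen-presentation, guanylate-binding protein and chemokine genes. In T cells Ifngr1 binds the ligand and Ifngr2 limits the response.

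The sequences just before the starts of 4 of these genes are shown because Ifng and Ifngr1 differed between BiTS and the other treatments and the neighbouring genes Il18r1 and Il18rap moved together between the sets. Each is the 250 bases before the first RefSeq start in GRCm38.p6, read 5′ to 3′ on the plus strand, at chr10:118440796-118441045 for Ifng, chr10:19591699-19591948 for Ifngr1, chr1:40465302-40465551 for Il18r1 and chr1:40515112-40515361 for Il18rap. Capitals mark matches, on either strand, to the NFAT core GGAAA, the AP-1 motif TGANTCA, the CREB motif TGACGTCA, the T-box motif GGTGTGA, the STAT motif TTCNNNGAA (GAS) and the TATA box TATAAA; no match overlapped another.
Ifng: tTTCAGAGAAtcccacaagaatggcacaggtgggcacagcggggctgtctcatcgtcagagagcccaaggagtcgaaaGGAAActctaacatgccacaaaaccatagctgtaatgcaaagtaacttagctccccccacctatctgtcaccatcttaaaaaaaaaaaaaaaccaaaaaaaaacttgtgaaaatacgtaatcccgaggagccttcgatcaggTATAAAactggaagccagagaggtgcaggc
Ifngr1: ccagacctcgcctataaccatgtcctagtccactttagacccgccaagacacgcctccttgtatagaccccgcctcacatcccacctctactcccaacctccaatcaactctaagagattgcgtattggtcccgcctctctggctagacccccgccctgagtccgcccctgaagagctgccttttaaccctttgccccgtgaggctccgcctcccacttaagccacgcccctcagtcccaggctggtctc
Il18r1: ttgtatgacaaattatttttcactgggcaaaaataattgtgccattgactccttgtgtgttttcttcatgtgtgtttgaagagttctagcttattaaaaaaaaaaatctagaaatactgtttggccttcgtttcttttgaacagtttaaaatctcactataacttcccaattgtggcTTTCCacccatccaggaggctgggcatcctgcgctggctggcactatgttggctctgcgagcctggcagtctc
Il18rap: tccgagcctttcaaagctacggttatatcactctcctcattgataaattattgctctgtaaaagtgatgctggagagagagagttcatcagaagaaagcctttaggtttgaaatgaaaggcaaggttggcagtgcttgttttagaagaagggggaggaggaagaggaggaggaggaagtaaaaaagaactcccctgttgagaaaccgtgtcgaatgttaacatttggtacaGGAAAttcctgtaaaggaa

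The Ifng sequence held 1 GAS match 249 bases before the start, 1 NFAT core match 172 bases before it and 1 TATA box match 30 bases before it. The Ifngr1 sequence held a match to none of the 6 motifs. Il18r1 and Il18rap each held 1 NFAT core match, 73 and 19 bases before their starts. The table lists 3 starts for Il18r1, of which the first is shown, and the sequence before the third held 2 GAS matches, 219 and 152 bases before it. Of the 32851 sequences of this length in the RefSeq table, 55.6% held the NFAT core, 6.75% the AP-1, 1.55% the CREB, 3.33% the T-box and 7.02% the GAS motif, and 12.4% the TATA box. These matches describe letters and are not measured binding sites, and 9 of the 10 genes were in the table (all but Il12rb1).

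Each library held 10813123 to 15239077 gene counts, and levels are CPM, counts scaled by TMM to a common library size. In each pair of values below, the first is from the first set and the second from the second. Every CD8 T cell marker of a list of 10 was counted in every library, and the list summed to 2454 and 2722 CPM in BiTS, 2168 and 2451 in BiTS(mut), and 1999 and 2350 in isotype. All 15 dendritic cell markers were also counted in every library, with sums of 2309 and 1440 CPM in BiTS, 2794 and 1592 in BiTS(mut), and 2776 and 1506 in isotype. Of 10 natural killer cell markers, Klra4 was at 0 counts in all 6 libraries and Ncr1 in 5, and the list's sum of 377 to 426 CPM was nearly all Il2rb, which activated T cells also express. RNA of other cells was thus present (the dendritic cell gene Clec9a stood at 14.0 to 47.8 CPM), and in such bulk RNA fewer cells of a type and less RNA per cell cannot be told apart.

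Ifng (ENSMUSG00000055170, mm10 chromosome 10, 118441047 to 118445892) was lower in BiTS than in either other group in both sets. It stood at 33.8 and 57.0 CPM in BiTS (457 and 601 counts), against 81.9 and 151 CPM in BiTS(mut) and 83.9 and 198 CPM in isotype. Even the higher BiTS library lay below the lowest library of the other groups, as it did for 9.5% of all tested genes against isotype and for 7.85% against BiTS(mut). Within the first set the log2 difference between BiTS and isotype was -1.31, and within the second -1.80. With the block the log2 fold change was -1.57 ± 0.10 (SE, n = 2 each), 2.97-fold lower, and without the block it was -1.64 ± 0.51. Against BiTS(mut) it was -1.35 ± 0.10 with the block, 2.54-fold lower, with -1.27 in the first set and -1.41 in the second. Leaving out 1 library at a time with the block, the BiTS to isotype value ran from -1.77 to -1.35. Without the block it ran from -2.13 to -0.89, with the smallest difference without isotype replicate 4.

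Between BiTS(mut) and isotype the Ifng libraries overlapped. The log2 difference was -0.03 in the first set and -0.39 in the second, and the value with the block was -0.23 ± 0.09. The value without the block depended on single libraries, at 0.47 without isotype replicate 4 and 0.10 without BiTS(mut) replicate 1. With the block, leaving out 1 library moved it over -0.42 to -0.003, with no change of sign. Per kilobase of exon, Ifng held rank 7 and rank 2 among the 10 genes in BiTS, at 28.0 and 47.2 CPM per kb, and lay below Ifngr1 at 63.5 and 57.3 CPM per kb in both of those libraries. In BiTS(mut), at 67.9 and 126 CPM per kb, and in isotype, at 69.5 and 164, it held rank 2 in the first set, just under Jak2 at 71.3 in BiTS(mut) and 72.9 in isotype, and rank 1 in the second. On the same scale Il18r1, at 1.32 to 6.46, and Il18rap, at 0.44 to 1.34, were the lowest of the 10 in every library, and Jak1, Il12rb1 and Stat4 lay together between 25.8 and 38.3.

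**Figure D1:**
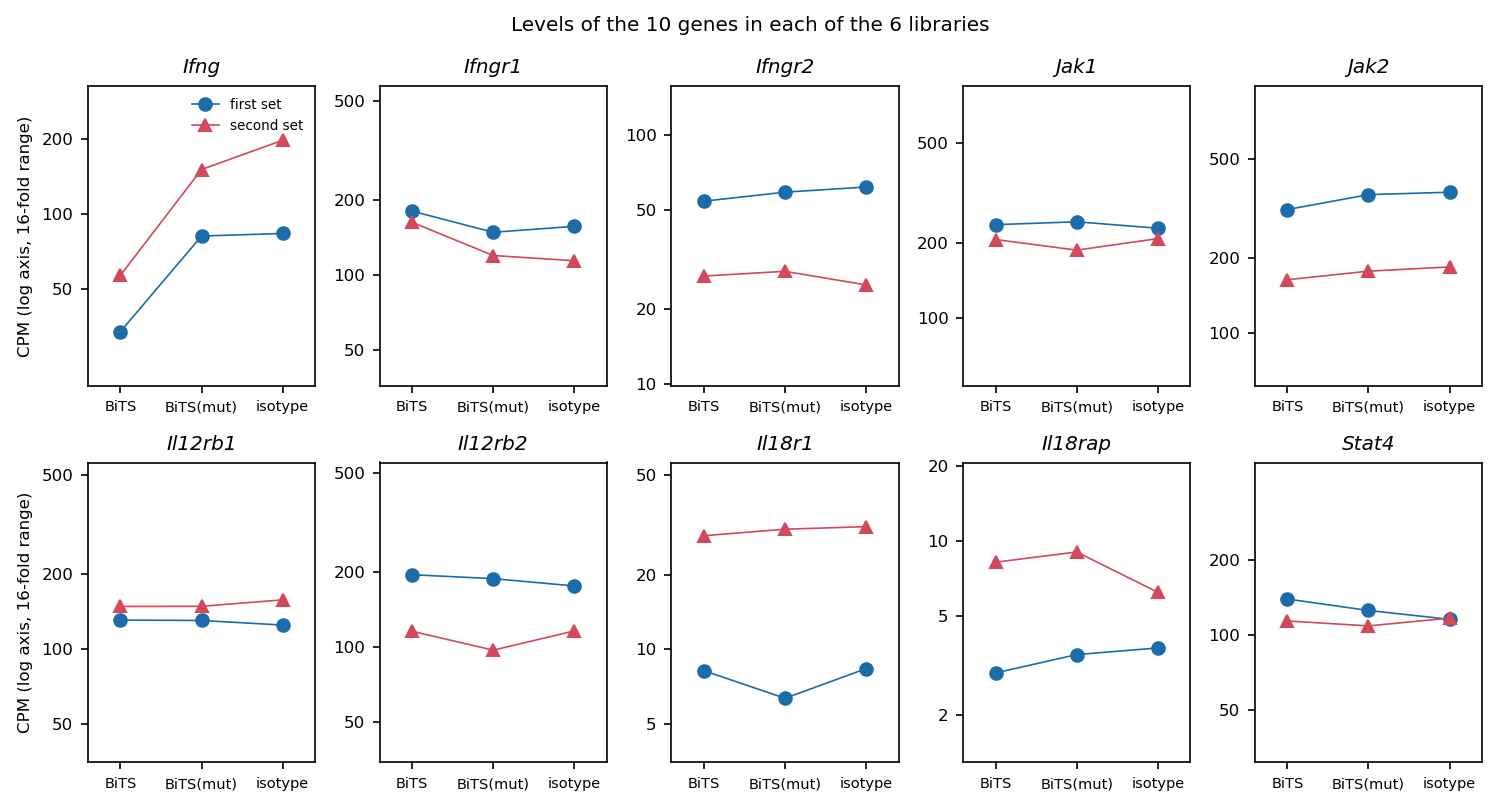
CPM of each gene (log axis, the same 16-fold range in every panel) in BiTS, BiTS(mut) and isotype, with circles for the first set and triangles for the second; each point is 1 library and lines join a set. Ifng is lowest in BiTS in both sets, at 33.8 and 57.0 CPM, Ifngr1 is highest there, at 181 and 163 CPM, and most other genes differ between the lines more than along them.

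Ifngr1, the ligand-binding chain of the interferon gamma receptor (chromosome 10, 19591949 to 19610229), was the only one of the 9 other genes that passed the test between BiTS and another treatment, and only with the block. It was at 181 and 163 CPM in BiTS, against 149 and 120 CPM in BiTS(mut) and 157 and 114 CPM in isotype. Both BiTS libraries lay above all 4 others, as they did for 11.3% of tested genes against isotype and 8.71% against BiTS(mut). With the block Ifngr1 was higher in BiTS than in isotype by 0.35 ± 0.09 on the log2 scale (1.28-fold, adjusted p = 0.0114) and higher than in BiTS(mut) by 0.36 ± 0.09 (1.28-fold, adjusted p = 0.0189), in edgeR's quasi-likelihood test with Benjamini-Hochberg adjustment over 13996 genes. The differences to isotype were 0.20 in the first set and 0.51 in the second, and those to BiTS(mut) 0.28 and 0.44. Without the block the values were 0.34 ± 0.21 and 0.36 ± 0.21, each with an adjusted p = 1.

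The Ifngr1 call rested on the block, the tool and single libraries. DESeq2 with the block gave an adjusted p = 0.0658 against isotype and 0.162 against BiTS(mut), with values of 0.35 and 0.36, and limma-voom 0.00954 and 0.0166. Against isotype the edgeR call was lost without BiTS replicate 2 (0.24, adjusted p = 0.539) and without isotype replicate 4 (0.24, adjusted p = 0.108), and against BiTS(mut) without BiTS replicate 2 (0.25, adjusted p = 0.715). It was also lost without BiTS(mut) replicate 1 (0.37, adjusted p = 0.642) or replicate 2 (0.36, adjusted p = 0.869), where the value itself stayed as large. Scaled to the spike-in transcripts, which called 0 genes in either comparison, its log2 fold changes were 0.43 and 0.55 while the median of all genes shifted to 0.05 and 0.18. The summed CD8 T cell markers moved the same way as Ifngr1 in each set. With the block 4 of 10 (Cd8a, Cd8b1, Lck and Zap70) were higher in BiTS than in isotype and 0 lower, beside 1.81% and 1.59% of all genes. Against BiTS(mut) 0 of the 10 were higher and 1, Cd5, was lower, beside 0.272% and 0.7% of all genes, and 0 were called by DESeq2. Their part in the Ifngr1 difference was not tested.

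Ifngr2, the signalling chain (chromosome 16, 91547072 to 91565169), did not pass the test. It was at 54.4 and 27.2 CPM in BiTS, 59.1 and 28.4 CPM in BiTS(mut) and 62.0 and 25.1 CPM in isotype, so the treatments overlapped and the sets did not. With the block its log2 fold change against isotype was -0.06 (95% interval -0.28 to 0.16, adjusted p = 0.852). Against BiTS(mut) it was -0.10 (-0.31 to 0.12, adjusted p = 0.923). The ratio of Ifngr1 to Ifngr2 per kilobase was 3.87 and 6.97 in BiTS, 2.93 and 4.91 in BiTS(mut), and 2.95 and 5.31 in isotype, highest in BiTS within each set but with a larger step between the sets than between treatments.

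The kinases did not pass the test between treatments. Jak2, which binds Ifngr2 and also serves the interleukin 12 receptor (chromosome 19, 29251828 to 29313080), was at 312 and 163 CPM in BiTS, 359 and 177 CPM in BiTS(mut) and 367 and 184 CPM in isotype. It was lowest in BiTS within each set, with a log2 fold change against isotype of -0.20 ± 0.08 (95% interval -0.37 to -0.04), which at an adjusted p = 0.205 was not called. Against BiTS(mut) the Jak2 value was -0.16 ± 0.08 (adjusted p = 0.638). Jak1, which binds Ifngr1 (chromosome 4, 101152367 to 101265282), was at 236 and 206 CPM in BiTS, 242 and 187 CPM in BiTS(mut) and 228 and 208 CPM in isotype, and its differences from isotype (0.02, 95% interval -0.15 to 0.19) and BiTS(mut) (0.05, -0.12 to 0.22) were under 1 SE.

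The genes of the interleukin 12 input did not pass the test either. Il12rb1, a chain shared with the interleukin 23 receptor (chromosome 8, 70808449 to 70821424), was at 130 and 148 CPM in BiTS, 130 and 148 CPM in BiTS(mut) and 124 and 157 CPM in isotype. Its log2 fold changes in BiTS, with the block, were -0.01 (95% interval -0.18 to 0.16) against isotype and 0.00 (-0.17 to 0.17) against BiTS(mut). Il12rb2, the chain that recruits STAT4 and that is induced in activated T cells (chromosome 6, 67291318 to 67376188), was at 195 and 116 CPM in BiTS, 188 and 97.2 CPM in BiTS(mut) and 176 and 116 CPM in isotype. The corresponding Il12rb2 values were 0.07 (-0.10 to 0.25) and 0.14 (-0.03 to 0.32). Stat4 (chromosome 1, 51987148 to 52107189) was at 140 and 114 CPM in BiTS, 126 and 109 CPM in BiTS(mut) and 116 and 117 CPM in isotype, with values of 0.12 (-0.06 to 0.30) and 0.11 (-0.06 to 0.29). The bound farthest from 0 among these 6 intervals was 0.32, but without the block the intervals were wider, such as -0.87 to 1.11 for Il12rb2 against BiTS(mut).

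The interleukin 18 receptor chains were the least abundant of the 10 genes, and the libraries of the sets did not overlap for either. Il18r1, the ligand-binding chain (chromosome 1, 40465552 to 40500854), was at 8.22 and 28.6 CPM in BiTS, 6.37 and 30.4 CPM in BiTS(mut) and 8.38 and 31.1 CPM in isotype. Il18rap, the accessory chain (chromosome 1, 40515362 to 40551705), was at 2.96 and 8.25 CPM in BiTS, 3.51 and 9.06 CPM in BiTS(mut) and 3.73 and 6.24 CPM in isotype, from 40 to 110 counts a library. Neither passed the test between treatments. With the block the log2 fold changes in BiTS were -0.08 (95% interval -0.39 to 0.22) against isotype and 0.08 (-0.22 to 0.37) against BiTS(mut) for Il18r1, and 0.10 (-0.40 to 0.60) and -0.17 (-0.65 to 0.30) for Il18rap, so that the low counts of Il18rap left room for larger changes than for the other genes.

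**Figure D2:**
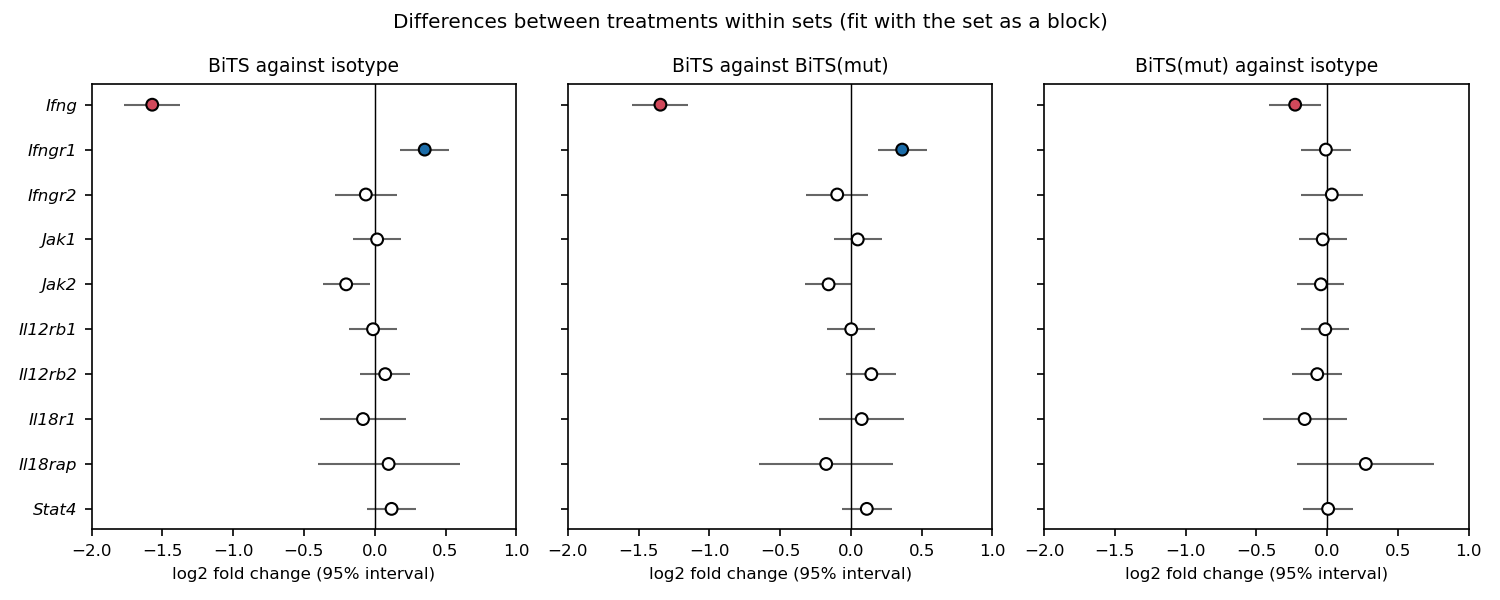
Log2 fold changes with 95% intervals (horizontal axis) of the 10 genes (rows) in the 3 comparisons, from the fit with the set as a block; blue points passed the test, white points did not, and Ifng, in red, has no test. Ifng lies at -1.57 and -1.35 in the comparisons of BiTS and at -0.23 between BiTS(mut) and isotype, Ifngr1 at 0.35 and 0.36 in those of BiTS, and of the other genes only Jak2 against isotype, at -0.37 to -0.04, has an interval that leaves out 0.

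Counted together with the block, 1 of the 9 genes other than Ifng was higher in BiTS than in isotype and 0 were lower, where 1.81% of all tested genes were higher and 1.59% lower (3.4% in either direction). Against BiTS(mut) 1 was higher and 0 lower, beside 0.272% higher and 0.7% lower of all genes (0.972% in either direction). Between BiTS(mut) and isotype 0 of 9 were called by edgeR, DESeq2 or limma-voom, beside 0.05% of all genes in edgeR. At an unadjusted p under 0.05 there were 0 of 9, beside 4.43% of all genes. With 1 call among 9, these counts give no result about the genes as a group. The median log2 fold change of the 9 was 0.02 in BiTS against isotype and 0.05 against BiTS(mut), beside -0.01 and 0.00 over all tested genes. Without the block 0.0% of all genes and 0 of the 9 were called by edgeR, DESeq2 or limma-voom in each of the 3 comparisons (BiTS against isotype 0.0%, BiTS against BiTS(mut) 0.0%, BiTS(mut) against isotype 0.0%), and at an unadjusted p under 0.05 these were 1.26%, 0.543% and 0.293% of all genes and again 0 of the 9.

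More of these genes passed the test between the sets than between treatments. In the second set against the first, with the block fit, 3 of the 9 other genes were higher and 5 lower, where 25.9% of all tested genes were higher and 26.9% lower (52.7% in either direction). What distinguishes the sets is not stated in the labels. No set was repeated, so a p-value here reflects how far libraries vary within a set and not how far sets vary. The libraries of the sets did not overlap for 7 of the 10 genes, beside 55.7% of all tested genes, the exceptions being Ifng, Ifngr1 and Stat4. Il18r1 rose by 1.98 ± 0.12 on the log2 scale (3.95-fold, adjusted p = 1.78e-18, n = 3 libraries a set in edgeR's fit), with 28.6 to 31.1 CPM in the second set and 6.37 to 8.38 CPM in the first. Il18rap rose by 1.21 ± 0.20 (adjusted p = 1.27e-06) and Il12rb1 by 0.24 ± 0.07 (adjusted p = 0.00377). Ifng itself was higher in the second set by 0.98 ± 0.08.

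In the opposite direction, Ifngr2 fell by 1.12 ± 0.09 on the log2 scale in the second set (adjusted p = 7.03e-15), Jak2 by 0.99 ± 0.07 (adjusted p = 5.63e-17) and Il12rb2 by 0.77 ± 0.07 (adjusted p = 1.04e-12). Ifngr1 fell by 0.30 ± 0.07 and Jak1 by 0.24 ± 0.07 (adjusted p = 3.24e-04 and 0.00324), and Stat4 at -0.16 ± 0.07 was not called (adjusted p = 0.0519). Stat4 lay at the threshold: it was called with RLE size factors (-0.17, adjusted p = 0.0433), with library totals alone (-0.21, adjusted p = 0.0121), with spike-in scaling (-0.92, adjusted p = 0.0253) and without either isotype library (-0.26 without each). The chains of each receptor thus moved unequally: the ratio of Il12rb1 to Il12rb2 per kilobase was 1.18 to 1.41 in the second set and 0.617 to 0.653 in the first, and that of Jak1 to Jak2 0.735 to 0.877 in the second and 0.433 to 0.526 in the first. Of the dendritic cell markers 13 of 15 were lower in the second set, with a median of -0.89, and of the CD8 T cell markers 6 of 10 were higher, beside 26.9% lower and 25.9% higher of all genes. Their part in these differences was not tested. Scaled to the spike-in transcripts, the median of all genes shifted to -0.74 in the second set, and on that scale Ifng was at 0.20 and Il12rb1 at -0.53, so the direction of Il12rb1 depends on the scaling. The Jak1 call was lost without either BiTS(mut) library (-0.17 without each).

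**Figure D3:**
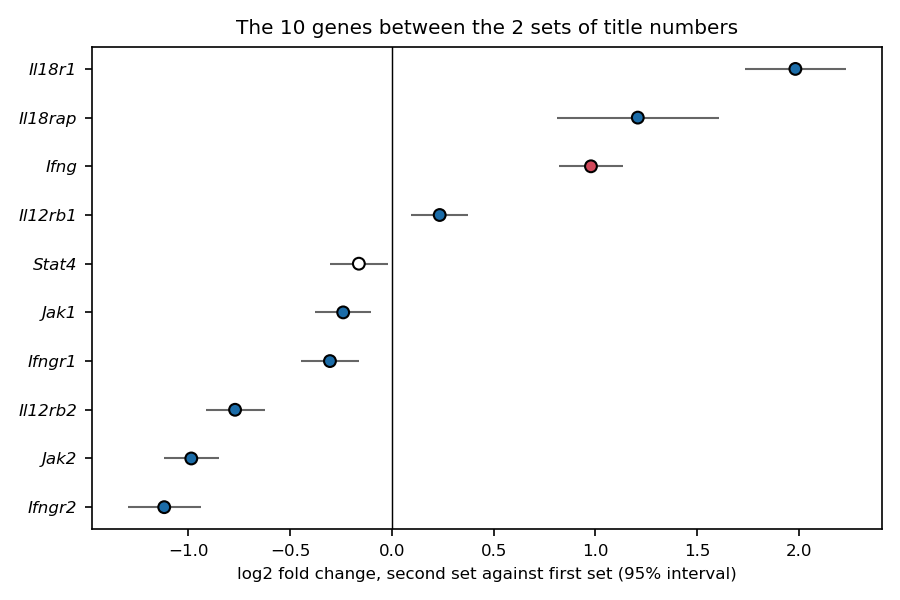
Log2 fold change of each gene in the second set against the first set of title numbers, with 95% intervals (horizontal axis), from the fit on all 6 libraries; blue points passed the test, the white point did not, and Ifng, in red, has no test. Il18r1, Il18rap, Ifng and Il12rb1 lie above 0, up to 1.98, and Ifngr2, Jak2 and Il12rb2 lie at -0.77 or below.

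Among the ligands and signalling genes of interleukin 12 and 18, 20 of 21 passed the filter, and with the block 2 were lower in BiTS than in isotype and the same 2 lower than in BiTS(mut), with 0 higher. Of all genes 1.59% and 0.7% were lower in these comparisons. Il12b, the p40 subunit that interleukin 12 shares with interleukin 23, was at 21.8 and 9.58 CPM in BiTS, 35.1 and 19.4 CPM in BiTS(mut) and 33.1 and 26.5 CPM in isotype. It fell by 0.97 ± 0.15 on the log2 scale against isotype (adjusted p = 1.48e-05) and by 0.80 ± 0.15 against BiTS(mut) (adjusted p = 6.72e-04). Leaving out 1 library with the block moved the Il12b value over -1.34 to -0.67 against isotype and -1.17 to -0.58 against BiTS(mut). Il23a, the p19 subunit of interleukin 23, was at 13.2 and 6.73 CPM in BiTS, 33.2 and 25.1 CPM in BiTS(mut) and 23.4 and 22.9 CPM in isotype, and fell by 1.22 ± 0.16 and 1.54 ± 0.15. The 2 calls against BiTS(mut) became 1 without BiTS replicate 2 or BiTS(mut) replicate 1, and with spike-in scaling 0 remained in either comparison. The p35 subunit Il12a had at most 0.33 CPM and failed the filter, and Il18 was between 0.44 and 1.30 CPM with values of -0.05 ± 0.58 and -0.49 ± 0.53 (adjusted p = 0.98 and 0.916). Tyk2, the other kinase of the interleukin 12 receptor, was at -0.03 ± 0.09 and -0.04 ± 0.09 (adjusted p = 0.935 and 0.964). Antigen-presenting cells are the usual source of Il12b and Il23a. Of 15 dendritic cell markers 6 were lower in BiTS in each comparison (beside the same 1.59% and 0.7%), with medians of -0.37 against isotype and -0.27 against BiTS(mut). Against isotype 14 of the 15 values were negative, but the markers did not move as one. Ccr7 was higher in BiTS than in isotype in both sets (716 and 509 CPM against 704 and 434). In the second set Itgax and Clec9a were at 47.8 and 17.8 CPM in BiTS, against 45.8 and 14.05 in isotype. The part of these markers in the Il12b and Il23a values was not tested.

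Of 21 transcription factors that act on Ifng, 20 passed the filter. With the block 0 were called in either comparison of BiTS by edgeR or DESeq2, beside 3.4% and 0.972% of all genes in edgeR. By limma-voom 1 was called against BiTS(mut). In edgeR 5 and 4 had an unadjusted p under 0.05, beside 14.8% and 8.45% of all genes. The medians of the 20 were -0.09 and -0.10, beside -0.01 and 0.00 over all genes. Tbx21, which encodes T-bet, was at 35.3 and 30.1 CPM in BiTS, 29.1 and 39.3 CPM in BiTS(mut) and 28.2 and 42.6 CPM in isotype. Its log2 fold changes were -0.08 (95% interval -0.34 to 0.19) against isotype and -0.03 (-0.29 to 0.23) against BiTS(mut). These values average opposite differences, since Tbx21 was highest in BiTS in the first set and lowest there in the second. Eomes, its relative in CD8 T cells, was at 9.41 and 17.3 CPM in BiTS, 8.84 and 18.5 CPM in BiTS(mut) and 8.96 and 20.1 CPM in isotype, at -0.09 (-0.42 to 0.23) and -0.02 (-0.33 to 0.30). In the second set against the first, 4 of these 20 were higher and 11 lower, where 25.9% of all genes were higher and 26.9% lower, among them Eomes at 1.04 ± 0.13, Tbx21 at 0.27 ± 0.11 and Irf1, an interferon-induced activator, at -0.43 ± 0.07. This Tbx21 value also averages opposite differences, a fall in BiTS and rises in BiTS(mut) and isotype.

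Downstream, the receptor's signalling and feedback genes and the genes it induces were counted as 2 lists that share Socs1 and Irf1. Of 15 signalling and feedback genes 2 were lower in BiTS than in isotype with the block and 0 higher (0 called by DESeq2), beside 1.59% lower and 1.81% higher of all genes. Against BiTS(mut) 0 were called by any of the 3 tools and 0 had an unadjusted p under 0.05 in edgeR. Of all genes 0.972% were called in edgeR and 8.45% had such a p. With 15 genes, these counts against BiTS(mut) give no result about the list. Socs1, the feedback inhibitor of JAK kinases, was at 53.5 and 71.7 CPM in BiTS, 59.0 and 81.2 CPM in BiTS(mut) and 69.8 and 86.9 CPM in isotype, and fell by 0.33 ± 0.09 against isotype (adjusted p = 0.032). That Socs1 call was lost in 7 of 13 blocked alternatives, 5 of them leaving out a library, over which the value ran from -0.39 to -0.27. Usp18, an inhibitor of type I interferon signalling, fell by 0.58 ± 0.14 (adjusted p = 0.0081), with 15.7 and 16.9 CPM in BiTS and 24.7 and 24.0 CPM in isotype. Irf1 was at -0.12 ± 0.09 and -0.11 ± 0.09 (adjusted p = 0.544 and 0.843).

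Of 25 interferon gamma induced genes, all passed the filter, and with the block 9 were lower in BiTS than in isotype and 0 higher, beside 1.59% and 1.81% of all genes, with a median log2 fold change of -0.23 beside -0.01 over all genes. Against BiTS(mut) 3 were lower and 0 higher, beside 0.7% and 0.272% of all genes, with a median of -0.11 beside 0.00. Ciita, which switches on MHC class II genes, was at 4.07 and 1.61 CPM in BiTS, 8.32 and 5.19 CPM in BiTS(mut) and 9.70 and 5.23 CPM in isotype, and fell by 1.39 ± 0.25 and 1.25 ± 0.25. Cd274, which encodes PD-L1, was at 96.8 and 42.9 CPM in BiTS, 126 and 66.8 CPM in BiTS(mut) and 140 and 61.9 CPM in isotype, and fell by 0.53 ± 0.09 and 0.50 ± 0.09. The adhesion molecule Icam1 fell by 0.37 ± 0.09 in both, while Iigp1, an immunity-related GTPase, and Irf8, a transcription factor, fell against isotype only by the test (0.78 ± 0.14 and 0.33 ± 0.08), which does not show that they differ between the comparisons. The other 4 called against isotype were Gbp2, Gbp5, Cxcl9 and Socs1, of which all but Socs1 are named after their values were seen. Both comparisons share the BiTS libraries. The 9 calls became 4 with DESeq2, 3 without BiTS replicate 1, 4 without BiTS replicate 2, 5 without either BiTS(mut) library and 0 with spike-in scaling. The 3 calls became 0 without BiTS replicate 2 or BiTS(mut) replicate 2, 1 without BiTS(mut) replicate 1 or with DESeq2, and 0 with spike-in scaling. Over all genes the calls with the block also fell with DESeq2, from 476 to 160 against isotype and from 136 to 41 against BiTS(mut). With spike-in scaling they fell to 0 in both. The drops under those settings thus came with a loss of calls over all genes. Ciita also stands in the dendritic cell list. Of its 15 markers 6 were lower in BiTS in each comparison, beside the same 1.59% and 0.7% of all genes. These markers did not move as one, since Ccr7 was higher in BiTS than in isotype in both sets. The medians of that list were -0.37 against isotype and -0.27 against BiTS(mut), and its part in the values of the induced genes was not tested.

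**Figure D4:**
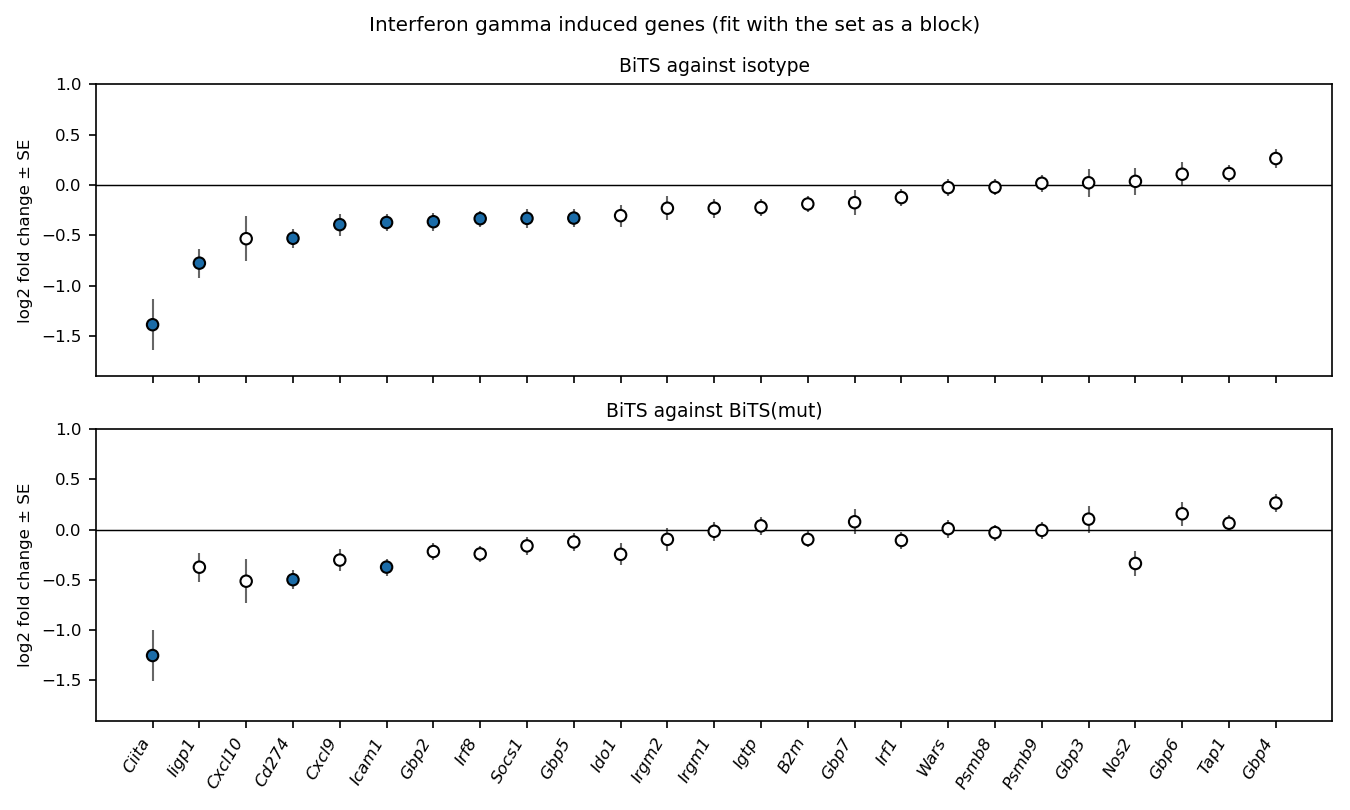
Log2 fold change ± SE (vertical axes) of the 25 interferon gamma induced genes (horizontal axis, ordered by the upper panel) in BiTS against isotype (upper) and BiTS against BiTS(mut) (lower), from the fit with the set as a block; blue points passed the test over all genes and white points did not. Ciita is lowest in both, at -1.39 and -1.25, and 9 points are blue in the upper panel and 3 in the lower.

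The genes whose pattern was most like Ifng over the 6 libraries, by Pearson's correlation of log2 CPM among 10221 genes with a mean of at least 5 CPM, were Slc25a14 (0.989), Ipo4 (0.984), Trim8 (0.983), Csrnp1 (0.982) and Prf1 (0.981), which encodes perforin. Prf1 was at 37.0 and 63.0 CPM in BiTS, 71.5 and 96.8 CPM in BiTS(mut) and 77.3 and 134 CPM in isotype, so it shared with Ifng both the lower level in BiTS and the higher level in the second set. After centring each set, the most alike were Zfp597, Dclk1, Syngr2, Rnf19b and Cox6c (0.997 to 0.999), and Jak2 stood at rank 216 with 0.950. Ifngr1 ran opposite to Ifng, at -0.975 over the 6 libraries and -0.968 after centring. With 6 libraries that share treatments and sets, and only 4 free values after centring, such correlations are a description.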

How the data were processed

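RNA of 6 libraries was measured by sequencing. The authors deposited 1 table of unnormalised counts by gene for each library. The exon lengths used per kilobase come from the same tables, per the file headers. The submitters' processing notes name mm10 and DESeq2. The aligner, the counter and strandedness were not given in the sources used here, and without strand a gene's reads cannot be told apart from those of its antisense partner. The tables held 49671 genes, of which 49412 had a symbol in GENCODE M21, and 92 ERCC spike-in transcripts with 3.36% to 7.54% of counts, left out of totals and scaling. A count of 3, the limit that a count of 0 allows, was 0.197 to 0.277 CPM, for counting error only.

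After filterByExpr and TMM scaling, the quasi-likelihood test of edgeR 4.0.16 (R 4.3.3, with limma 3.58.1) was fitted two-sided on all 6 libraries with 1 coefficient per group and Benjamini-Hochberg adjustment over 13996 genes; a call is an adjusted p under 0.05. The set of title numbers as a block was the stated alternative. Deviations from group means correlated between libraries of a set at 0.66 (BiTS and isotype), 0.74 (BiTS and BiTS(mut)) and 0.73 (BiTS(mut) and isotype), so the pairing comes from the title numbers and these data, not from a stated batch. The blocked fit had 2 residual and 45.95 prior degrees of freedom, the other 3 and 3.14, so a small blocked p leans on the spread shared over genes. Other alternatives were DESeq2 1.42.0, limma-voom, other scalings and filters, and leaving out libraries. The steps were tested on simulated data.

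The genes and all lists were chosen with earlier results of these data known. List genes are named where called with the block, up to 5 a list by p, plus Tbx21, Eomes, Tyk2, Il12b, Il18, Socs1 and Irf1; genes like Ifng are the 5 with the highest Pearson r, gene-model names passed over. Of the genes to be named, 1 is not reported here and was left out of the lists.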

Additional observations from a re-analysis of the deposited data

How the results depend on the processing

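Without the block, edgeR called 0 genes in each comparison, and 11, 3 and 5 genes, in the order BiTS against isotype, BiTS against BiTS(mut) and BiTS(mut) against isotype, without the filter on low counts. In the same order, the replicate block gave 476, 136 and 7 calls with the block alone, 160, 41 and 2 calls with DESeq2, 537, 170 and 8 calls with limma-voom, 461, 148 and 7 calls with RLE size factors, 411, 124 and 6 calls with library totals, 458, 155 and 14 calls with no filter, 409, 102 and 5 calls with the 5 CPM filter, and 0, 0 and 1 with spike-in scaling. Leaving out 1 library at a time, with or without the block, gave 0 to 937, 0 to 435 and 0 to 132 calls. Of the 9 genes other than Ifng, 0 were called without the block and 1, Ifngr1, with it in each comparison of BiTS (0 with DESeq2 or spike-in scaling, 0 to 1 leaving out a library). Ifng kept its direction in both comparisons of BiTS in all 28 alternatives. Leaving out a library without the block, it ranged from -2.13 to -0.89 in BiTS against isotype. Between BiTS(mut) and isotype it ranged from -0.78 to 0.47 without the block, where the sign reversed. With the block that range was -0.42 to -0.003, where it did not. The values below, none of them past the threshold, changed sign. With spike-in scaling and no block these were Il12rb1 0.052, Tbx21 0.013, Tyk2 0.021 in BiTS against isotype. In BiTS against BiTS(mut) they were Il18rap 0.083, Eomes 0.20, Tbx21 0.13, Tyk2 0.073. In BiTS(mut) against isotype they were Jak1 0.013, Jak2 0.039, Il12rb2 0.066. With the replicate block and spike-in scaling these were Ifngr2 0.029, Il12rb1 0.038, Il18 0.028, Tyk2 0.039 in BiTS against isotype. In BiTS against BiTS(mut) they were Ifngr2 0.091, Jak2 0.019, Il18rap 0.047, Eomes 0.18, Irf1 0.074, Socs1 0.023, Tbx21 0.14, Tyk2 0.15, Usp18 0.065. In BiTS(mut) against isotype they were Ifngr2 -0.062, Stat4 -0.12. With library totals alone these were Jak1 -0.010 in BiTS against isotype. In BiTS against BiTS(mut) they were Il12rb1 -0.014, Il18r1 -0.011. In BiTS(mut) against isotype they were Ifngr2 -0.016, Stat4 -0.002. With the replicate block and library totals alone these were Jak1 -0.011 in BiTS against isotype. In BiTS against BiTS(mut) they were Il12rb1 -0.013. In BiTS(mut) against isotype they were Stat4 -0.006. In BiTS against BiTS(mut), Il12rb1 was -0.004 with DESeq2 or RLE size factors, -0.015 with no filter and -0.002 with the 5 CPM filter, each with and without the block, and without the block Il18r1 was -0.002, -0.002, -0.013 and -0.002 under the same 4 settings. In BiTS against isotype, Il18rap was -0.006 with limma-voom and no block. Leaving out 1 library at a time, with or without the block, the ranges that cross 0 were in BiTS against isotype, Ifngr2 -0.68 to 0.70, Jak1 -0.087 to 0.12, Jak2 -0.76 to 0.37, Il12rb1 -0.18 to 0.16, Il12rb2 -0.34 to 0.42, Il18r1 -1.26 to 1.13, Il18rap -0.75 to 0.72, Stat4 -0.033 to 0.26, Cd274 -1.24 to 0.18, Eomes -0.62 to 0.57, Il18 -1.02 to 0.73, Irf1 -0.38 to 0.15, Tbx21 -0.46 to 0.28, Tyk2 -0.12 to 0.067. Others were, in BiTS against BiTS(mut), Ifngr2 -0.69 to 0.53, Jak1 -0.14 to 0.25, Jak2 -0.71 to 0.44, Il12rb1 -0.089 to 0.10, Il12rb2 -0.30 to 0.69, Il18r1 -1.15 to 1.52, Il18rap -1.07 to 0.66, Stat4 -0.041 to 0.25, Cd274 -1.17 to 0.075, Eomes -0.53 to 0.59, Il18 -1.44 to 0.32, Irf1 -0.33 to 0.14, Socs1 -0.39 to 0.082, Tbx21 -0.42 to 0.32, Tyk2 -0.13 to 0.065, Usp18 -0.21 to 0.007. Further ranges were in BiTS(mut) against isotype, Ifngr1 -0.23 to 0.23, Ifngr2 -0.62 to 0.81, Jak1 -0.23 to 0.16, Jak2 -0.65 to 0.54, Il12rb1 -0.18 to 0.16, Il12rb2 -0.60 to 0.37, Il18r1 -1.63 to 1.12, Il18rap -0.50 to 0.85, Stat4 -0.13 to 0.14. In these fits without the block a group keeps 1 library of 1 set, whose spread is assumed to be that of the others, and the cause of each change was not tested. Between the sets, with alternatives chosen after seeing the data, 8 of the 9 genes were called, 7 to 9 leaving out a library, 9 with RLE size factors or library totals, which added Stat4, and 7 with spike-in scaling. Under that scaling Stat4 was called, Il12rb1 reversed to -0.525 and was not, and Il18rap at 0.43 was not. Il18rap, with 40 to 110 counts a library, and Il18, under 2 CPM, are the values that depth limits most.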

Other observations

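The wider JAK and STAT families, the kinases and transcription factors that carry most cytokine signals, gave 0 calls among 10 tested genes in each comparison between treatments with edgeR and the block, and 0 with DESeq2 or limma-voom. Of all tested genes edgeR called 3.4% in BiTS against isotype, 0.972% in BiTS against BiTS(mut) and 0.05% in BiTS(mut) against isotype. At an unadjusted p under 0.05 there were 4 in BiTS against isotype, 1 in BiTS against BiTS(mut) and 0 in BiTS(mut) against isotype, beside 14.8%, 8.45% and 4.43% of all tested genes. In the second set against the first, 1 of the 10 was higher and 6 were lower, beside 25.9% and 26.9% of all tested genes.

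Of 5 genes near Ifng on its chromosome, 4 passed the filter. With the block 0 of these were called in BiTS against isotype or BiTS against BiTS(mut) by edgeR, DESeq2 or limma-voom. Of all tested genes 3.4% and 0.972% were called in edgeR. At an unadjusted p under 0.05 there were 0 near Ifng, beside 14.8% and 8.45% of all tested genes. With 4 genes tested, these counts give no result about the genes near Ifng. Their median log2 fold changes were -0.10 and 0.07, beside -0.01 and 0.00 over all tested genes. In the second set against the first 2 of the 4 were higher and 2 lower, where 52.7% of all tested genes were called in either direction.

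Of the markers of other cell types, 5 of 10 natural killer cell, 4 of 10 macrophage and monocyte, 3 of 10 B cell and 2 of 4 CD4 T cell genes passed the filter. With the block, edgeR, DESeq2 and limma-voom each called 0 of these in either comparison of BiTS. Beside this, edgeR called 3.4% of all tested genes in BiTS against isotype and 0.972% in BiTS against BiTS(mut). At an unadjusted p under 0.05 there was 1 B cell marker in BiTS against isotype, where 14.8% of all tested genes had such a p (8.45% against BiTS(mut)). With so few genes tested, these counts give no result about those cell types.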
